A study of Macaca mulatta with 28 samples.

Results

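The 9 genes described here are those through which acetylcholine is made, packed, taken back up, broken down and sensed at its muscarinic receptors: the receptors CHRM1, CHRM2, CHRM3, CHRM4 and CHRM5, and CHAT, ACHE, SLC18A3 and SLC5A7. They were chosen by gene symbol, and all 9 were among the 16885 transcripts with a symbol in a table of RNA-seq counts from the ventral tegmental area (VTA), where the dopamine neurons that project to the nucleus accumbens have their cell bodies. Tissue punches came from 28 adult, wild type male rhesus macaques (Macaca mulatta) with 1 library each. The 17 drinkers had self-administered ethanol and were grouped by intake as Low (1 animal), Binge (2), Heavy (5) or Very Heavy (9). The 11 controls were calorically yoked or housed without alcohol, and the labels do not separate these. Samples were labelled as taken at 30 days of abstinence. The animals belonged to 2 cohorts, with 8 controls and 8 drinkers in cohort 1 and 3 controls and 9 drinkers in cohort 2, so both Binge animals were from cohort 2 and the Low animal from cohort 1. The 3 controls of cohort 2 were placed there by elimination, since the study's source data do not list their cohort, and every cohort 2 control value below rests on that.

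Acetylcholine reaches the VTA mainly from cholinergic cells of the pedunculopontine and laterodorsal tegmental nuclei, whose cell bodies lie outside the region. The muscarinic receptors are G protein-coupled receptors: M1, M3 and M5 (CHRM1, CHRM3, CHRM5) act through Gq and phospholipase C, whereas M2 and M4 (CHRM2, CHRM4) act through Gi/o and restrain adenylyl cyclase. M5 is known as the muscarinic receptor of midbrain dopamine neurons.

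The receptors are close relatives, and their coding sequences show how near they are. The stretch below surrounds the codons for aspartate, arginine and tyrosine at the inner end of the third transmembrane helix, a motif on which G protein coupling depends. It is shown because it is the same feature in all 5 receptors and makes plain where they differ. Each was read from RefSeq transcripts on build Mmul_10, 5′ to 3′ on the coding strand, with the codons of the motif in capitals.
CHRM1, chr14:11287081-11287125, plus strand: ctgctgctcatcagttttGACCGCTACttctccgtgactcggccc
CHRM2, chr3:163446651-163446695, plus strand: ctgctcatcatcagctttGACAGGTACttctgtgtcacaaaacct
CHRM3, chr1:9169763-9169807, minus strand: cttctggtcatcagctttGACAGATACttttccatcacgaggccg
CHRM4, chr14:19383145-19383189, plus strand: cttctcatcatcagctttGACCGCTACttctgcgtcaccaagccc
CHRM5, chr7:10422087-10422131, plus strand: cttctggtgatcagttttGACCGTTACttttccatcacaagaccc

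Of the 45 bases, 38 were identical between CHRM2 and CHRM4 and 38 between CHRM3 and CHRM5, the highest of the 10 receptor pairs. CHRM1 shared 36 with CHRM4, 35 with CHRM5, 34 with CHRM3 and 32 with CHRM2. Despite this closeness, no stretch of 31 bases was shared between the RefSeq transcripts of any 2 of the 9 genes. In every RefSeq model the coding sequence of each receptor, and that of SLC18A3, lies in 1 exon, while CHAT is coded by 14 or 15 exons, SLC5A7 by 8 and ACHE by 4 to 6. SLC18A3 (chr9:47773276-47775688, minus strand) encodes the vesicular acetylcholine transporter. It lies within the span of CHAT (chr9:47719200-47776891, minus strand), inside an intron of 1 of the 4 CHAT models and outside the span of the other 3, and it shares no exon base with any of them. The remaining genes are ACHE at chr3:42972754-42981090 on the minus strand and SLC5A7 at chr13:11469233-11497324 on the plus strand.

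Counts were scaled to a common library size with TMM normalization (giving CPM, the unit of all levels). A transcript was tested if 3 or more animals had 5 or more counts of it, which 13769 did, among them all 9 genes. Total counts ranged from 12303914 to 27338669 per animal, with medians of 22339349 in controls and 21701233 in drinkers. All 11 dopamine neuron markers were detected, but their summed level ran from 40.8 to 1863 CPM, with SLC6A3, the dopamine transporter, at 6.35 to 833 CPM, so punches differed widely in their dopamine neuron transcripts. Fewer cells of a type and less RNA per cell cannot be told apart in such tissue. Of 8 markers of cranial motor neurons, another cholinergic cell type of the midbrain, the 4 past the filter summed to 0.0986 to 2.60 CPM, and MNX1 was at 0 in all animals.

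The gene set was dominated by the enzyme that ends the signal. ACHE, which hydrolyses acetylcholine, had 260 to 896 counts per animal (25.8 CPM at the median, range 17.6 to 37.8), whereas CHAT and SLC18A3, which mark cholinergic cell bodies, were at the edge of detection. CHAT, which synthesizes acetylcholine, had 0 to 26 counts and 172 over all 28 animals. All such counts are for the 1 transcript listed per gene, and CHAT has 4 RefSeq models, so they may not hold all reads of a gene. SLC1A2, an astrocyte marker, was listed at 0 in all animals. SLC18A3 had 0 to 9 counts and 44 in all. A single library cannot separate 3 counts from 0, a limit equal to 0.112 to 0.238 CPM depending on the library. CHAT was at or under that limit in 14 animals, 8 of them at 0, and SLC18A3 in 23, 14 of them at 0. SLC5A7, the high-affinity choline transporter that feeds synthesis in cholinergic terminals, stood apart from both, with 9 to 92 counts and none at 0.

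The table gives 1 Ensembl transcript per gene and its length was not used here, so levels of different genes were set side by side only per kilobase of the longest and of the shortest RefSeq transcript, with no test. In controls the median ACHE level was 6.42 CPM per kilobase by its longest and 13.7 by its shortest model. Among the receptors these values were 2.68 for the single CHRM5 model, 1.09 and 1.14 for CHRM2, 0.571 and 1.31 for CHRM1, 0.647 and 1.14 for CHRM4, and 0.384 and 1.59 for CHRM3. SLC5A7 was at 0.470, CHAT at 0.0510 and 0.0573, and SLC18A3 at 0.0181 CPM per kilobase. ACHE was thus above every other gene by either model. CHRM1, CHRM2, CHRM3 and CHRM4 changed places with the model used, and the CHRM5 model holds coding sequence only, which raises its value per kilobase, so no order is given among the receptors.

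Spread between animals also set the genes apart. The coefficient of variation of CPM over the 28 animals was 21.7% for ACHE and 33.9% for CHRM2, against a median of 38.9% over all transcripts tested. It lay between 51.3% and 63.8% for CHRM1, CHRM3, CHRM4, CHRM5 and SLC5A7. CHAT and SLC18A3, with the lowest counts, reached 126% and 147%.

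**Figure D1:**
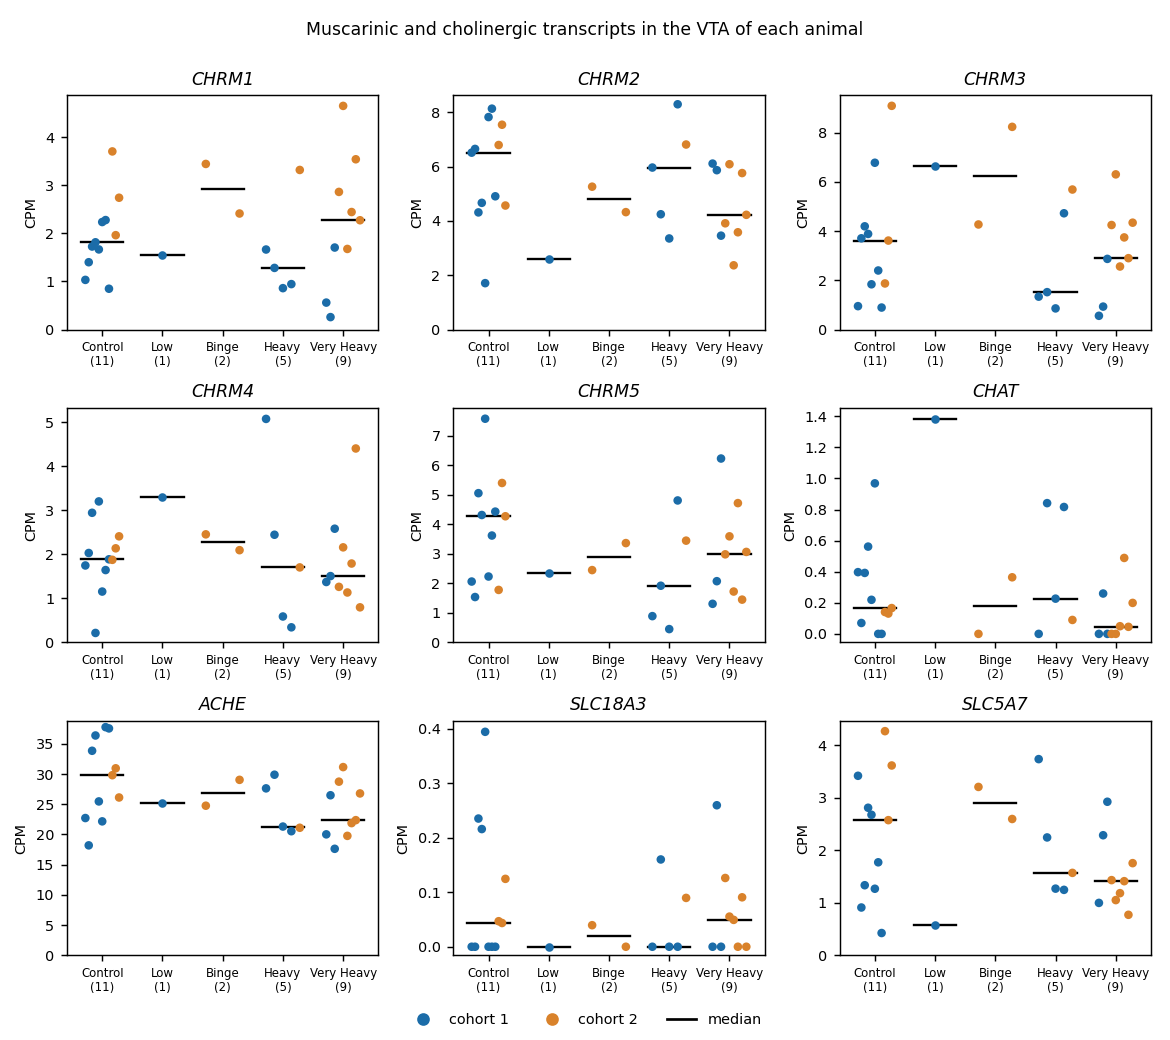
Level of each of the 9 transcripts (y axis, CPM, linear) in controls and the 4 drinking categories (x axis, number of animals in brackets). Points are animals coloured by cohort and bars are medians. In every panel the drinkers overlap the controls, and in the CHRM1 panel the cohort 2 animals sit between 1.68 and 4.65 CPM and the cohort 1 animals between 0.260 and 2.28.

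The first comparison asked whether a history of drinking left a mark on these genes after abstinence. None of the 9 passed edgeR's quasi-likelihood test at a Benjamini-Hochberg adjusted p of 0.05 in drinkers against controls (0% of all transcripts passed), and drinkers and controls overlapped for each gene. At an unadjusted p below 0.05 the count was 1 of 9, against 4.57% of all transcripts tested. Of the 9 estimates 5 were negative, with a median log2 fold change of -0.26, or -0.12 without SLC18A3, against 0.00 over all transcripts.

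ACHE gave the lowest p of the 9. In controls it ranged from 18.2 to 37.8 CPM with a median of 29.8, and in drinkers from 17.6 to 31.2 with a median of 24.8. The lowest control was close to the lowest drinker, but no drinker reached the upper controls. Among controls the mean was 29.2 ± 6.75 CPM (SD, n = 11) and among drinkers 24.4 ± 4.11 (SD, n = 17). The log2 fold change was -0.26 (SE 0.11, 95% interval -0.48 to -0.04), with p = 0.0247 before and 1 after adjustment in edgeR. It was -0.31 (SE 0.17) in cohort 1 and -0.20 (SE 0.14) in cohort 2, with adjusted p of 0.537 and 1 in edgeR. The 4 cranial motor neuron markers past the filter summed to 0.280 to 2.29 CPM in controls (median 0.896) and 0.0986 to 2.60 in drinkers (median 0.408). Of these 2 were lower in drinkers and 1 had an unadjusted p below 0.05, with a median log2 fold change of -0.22, and their part in the ACHE difference was not tested. The 5 Heavy animals had 20.5, 21.1, 21.3, 27.6 and 29.9 CPM, and the 9 Very Heavy animals 17.6 to 31.2 with a median of 22.4. The Low animal was at 25.3 and the Binge animals at 24.8 and 29.0 CPM. ACHE estimates were not whole numbers, within 0.001, in any animal, while those of the other 8 genes were whole in 82.1% to 100% of animals. Salmon can return such values where reads are divided among transcripts, and which transcripts these would be was not examined.

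The choline transporter SLC5A7 had 0.425 to 4.26 CPM in controls (median 2.57) and 0.585 to 3.73 in drinkers (median 1.43). Its log2 fold change was -0.35 (SE 0.32, 95% interval -1.01 to 0.30, adjusted p = 1 in edgeR). The estimates of the cohorts were far apart. In cohort 1 controls had 0.425 to 3.42 and drinkers 0.585 to 3.73 CPM, a log2 fold change of 0.07 (SE 0.48). In cohort 2 the 3 controls were at 2.57, 3.61 and 4.26 CPM, the Binge animals at 2.59 and 3.20, the Heavy animal at 1.57 and the 6 Very Heavy animals between 0.771 and 1.75. There the log2 fold change was -1.06 (SE 0.40, 95% interval -1.93 to -0.18), with an unadjusted p of 0.0216 and an adjusted p of 1 in edgeR. This was the 1 of 9 genes with an unadjusted p below 0.05 in cohort 2, against 3.97% of all transcripts, and the groups overlapped through the Binge animals. Between cohorts, drinkers differed by -0.10 on the log2 CPM scale (means 0.80 in cohort 1 and 0.70 in cohort 2, exact permutation p = 0.767), while the 3 cohort 2 controls, placed there by elimination, lay 1.09 above the 8 of cohort 1 (means 1.81 and 0.71, exact permutation p = 0.0606). Leaving out each of the 3 controls in turn moved the log2 fold change in cohort 2 between -1.24 and -0.89. The difference between cohorts was itself tested and did not pass, with an interaction of -1.13 (SE 0.66, p = 0.0993, adjusted p = 0.647 in edgeR).

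CHAT had 0 to 26 counts both in controls (median 4) and in drinkers (median 2). The highest values were the Low animal at 1.38 CPM and 1 cohort 1 control at 0.969. Of the 9 Very Heavy animals 4 had no CHAT count and the others 1 to 9, while the Heavy animals had 0, 2, 5, 19 and 21 counts and the Binge animals 0 and 8. The log2 fold change of drinkers against controls was 0.01 with a 95% interval of -1.81 to 1.83, or a fold of 0.286 to 3.56, so changes within that range were not detectable with these counts. SLC18A3 had 25 counts in all controls together and 19 in all drinkers, and since most animals were at or under the limit of 3 counts in both groups, no fold is given.

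The Gq-coupled receptors did not differ detectably between drinkers and controls. CHRM5 was at 1.54 to 7.58 CPM in controls (median 4.28) and 0.453 to 6.23 in drinkers (median 2.45), a log2 fold change of -0.48 (SE 0.31, 95% interval -1.12 to 0.16, adjusted p = 1 in edgeR). The estimate was -0.62 in cohort 1 and -0.35 in cohort 2. Dopamine neuron markers leaned the same way, with 9 of 11 lower in drinkers, a median log2 fold change of -0.45 and none at an unadjusted p below 0.05. With the dopamine neuron score as a covariate the CHRM5 estimate was -0.42, and the part of these markers in it was not tested further. The Heavy animals had 0.453, 0.893, 1.92, 3.45 and 4.81 CPM of CHRM5 and the Very Heavy animals 1.31 to 6.23 (median 2.99). The Low animal stood at 2.34 and the Binge animals at 2.45 and 3.37 CPM.

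CHRM1 had 0.849 to 3.70 CPM in controls (median 1.81) and 0.260 to 4.65 in drinkers (median 1.71), and its log2 fold change of 0.10 (SE 0.33) became -0.34 with cohort as a covariate. CHRM3 had 0.896 to 9.09 CPM in controls (median 3.62) and 0.561 to 8.24 in drinkers (median 3.75), with a log2 fold change of 0.03 (SE 0.39) that became -0.24 with cohort as a covariate. Neither sign can be read as a direction. The highest drinker for CHRM3 was a Binge animal at 8.24 CPM, the other Binge animal had 4.27, the Low animal 6.65, and the Heavy animals 0.861, 1.34, 1.52, 4.73 and 5.69.

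Of the Gi/o-coupled receptors, CHRM2 had 1.71 to 8.13 CPM in controls (median 6.51) and 2.37 to 8.29 in drinkers (median 4.32), with a log2 fold change of -0.26 (SE 0.21, 95% interval -0.68 to 0.17, adjusted p = 1 in edgeR). The lowest animal of all was a control and the highest a Heavy drinker. CHRM4 had 0.216 to 3.20 CPM in controls (median 1.89) and 0.344 to 5.07 in drinkers (median 1.79), a log2 fold change of 0.09 (SE 0.35). The 5 Heavy animals nearly spanned its whole range, at 0.344, 0.589, 1.70, 2.44 and 5.07 CPM.

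**Figure D2:**
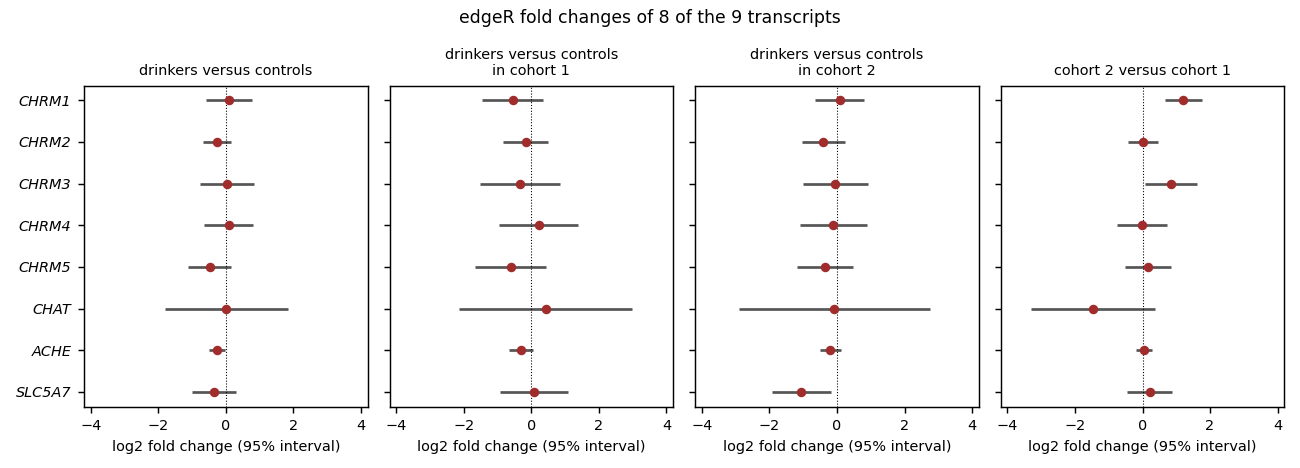
Log2 fold changes from edgeR (points) with 95% intervals (bars) for 8 of the 9 transcripts in drinkers against controls, the same in each cohort, and cohort 2 against cohort 1. SLC18A3 is left out because both groups were near 0 counts. Intervals include 0 except for ACHE in drinkers against controls, SLC5A7 in cohort 2, and CHRM1 and CHRM3 between cohorts, before adjustment over all transcripts.

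Intake categories gave no further call. In Heavy animals against controls 0 of 9 genes passed and 7 of 9 estimates were negative (median log2 fold change -0.27, or -0.22 without SLC18A3, against -0.01 over all transcripts). None had an unadjusted p below 0.05, against 7.15% of all transcripts. In Very Heavy animals against controls 0 of 9 passed, 8 of 9 estimates were negative (median -0.33, or -0.31 without SLC18A3, against -0.01), and ACHE alone had an unadjusted p below 0.05 (log2 fold change -0.29, SE 0.13, p = 0.0400, adjusted p = 1 in edgeR), against 4.62% of all transcripts. Cohorts were uneven here, with 6 of 9 Very Heavy, 1 of 5 Heavy and 3 of 11 control animals from cohort 2. With cohort as a covariate 0 of 9 genes passed in edgeR, with lowest adjusted p of 0.812 for Heavy and 0.768 for Very Heavy animals. These comparisons share the same 11 controls. Very Heavy against Heavy animals, which share none, gave 0 of 9 and 4 positive to 5 negative estimates, with no unadjusted p below 0.05 against 6.80% of all transcripts. The largest estimate there was CHAT at -1.72 (SE 1.20, 95% interval -4.19 to 0.74, adjusted p = 0.941 in edgeR). This contrast ran along the cohorts, with 4 of 5 Heavy animals from cohort 1 and 6 of 9 Very Heavy animals from cohort 2, and the CHAT estimate was -1.27 with cohort as covariate (SE 1.50, adjusted p = 0.985 in edgeR). For all 3 comparisons 0% of transcripts passed the adjusted test. Within cohort 1 no gene passed and none had an unadjusted p below 0.05, where 0.0363% and 11.6% of all transcripts did, and within cohort 2 no gene passed and 0% of transcripts did. The interaction of drinking with cohort gave 0 of 9 at either level, against 0.0145% and 9.62% of all transcripts.

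The lowest p of the 9 genes in any comparison was that of CHRM1 between cohorts. CHRM1 had 0.260 to 2.28 CPM in cohort 1 (median 1.47) and 1.68 to 4.65 in cohort 2 (median 2.80). The overlap was narrow: the lowest cohort 2 animals fell among the upper cohort 1 animals. With drinking in the model the log2 fold change was 1.21 (SE 0.27, 95% interval 0.66 to 1.76), a ratio of 2.31, with p = 0.000105 and an adjusted p of 0.0899 in edgeR. It did not pass in edgeR, where 0.0436% of transcripts did, and passed in DESeq2 (log2 fold change 1.18, adjusted p = 0.000204), where 0.885% did, and in limma-voom (1.15, adjusted p = 0.0409), where 0.167% did. Among controls alone CHRM1 was at 0.849 to 2.28 CPM in cohort 1 and 1.96, 2.74 and 3.70 in cohort 2, and among drinkers at 0.260 to 1.71 and 1.68 to 4.65. The mean log2 CPM was higher in cohort 2 by 0.77 in controls (exact permutation test, two-sided p = 0.0364) and by 1.47 in drinkers (p = 0.000165 by the same exact test). These are 2 of 18 such tests, 1 per gene and group, and the p-values are not adjusted.

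CHRM3, which did not pass, had 0.561 to 6.78 CPM in cohort 1 (median 2.12) and 1.88 to 9.09 in cohort 2 (median 4.26). Its log2 fold change was 0.85 (SE 0.37, unadjusted p = 0.0311, adjusted p = 0.429 in edgeR). These were the 2 of 9 genes with an unadjusted p below 0.05 between cohorts, against 9.80% of all transcripts. The other Gq-coupled receptor, CHRM5, differed by 0.16 (95% interval -0.52 to 0.84), CHRM2 by 0.00 (-0.44 to 0.45) and ACHE by 0.05 (-0.18 to 0.29). The estimate for CHAT was larger than that of CHRM1 but far less certain, at -1.47 (SE 0.90, 95% interval -3.30 to 0.36, adjusted p = 0.647 in edgeR).

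Total counts covered 12303914 to 27338669 in cohort 1 and 16421206 to 25370339 in cohort 2. Glutamate neuron markers summed to 43.9 to 385 CPM in cohort 1 and 67.4 to 272 in cohort 2, with 1 of 3 higher in cohort 2. GABA neuron markers summed to 111 to 353 and 144 to 273 CPM, with 1 of 3 higher. Of the 5 oligodendrocyte markers 4 were lower in cohort 2, and of the 3 astrocyte markers past the filter 2 were higher and 2 had an unadjusted p below 0.05, while SLC1A2 was listed at 0 in all animals. The 3 Edinger-Westphal peptide neuron markers were all higher in cohort 2 (median log2 fold change 0.53), summing to 0.397 to 21.6 CPM in cohort 1 and 3.62 to 50.6 in cohort 2. The 2 general neuron markers past the filter were lower (median -1.07; 397 to 1484 and 504 to 1187 CPM), as were 7 of the 11 dopamine neuron markers (median -0.52; 43.5 to 1863 and 40.8 to 1716 CPM). Of the 4 cranial motor neuron markers past the filter 2 were higher (median 0.14; 0.156 to 2.29 and 0.0986 to 2.60 CPM). The glutamate neuron, oligodendrocyte, dopamine neuron and cranial motor neuron lists each held 1 marker with an unadjusted p below 0.05, and the GABA, Edinger-Westphal and general neuron lists held 0. No marker of these 8 lists passed the adjusted test in edgeR. Their part in the CHRM1 difference was not tested, and cohort stands for everything that separated the sets of animals.

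**Figure D3:**
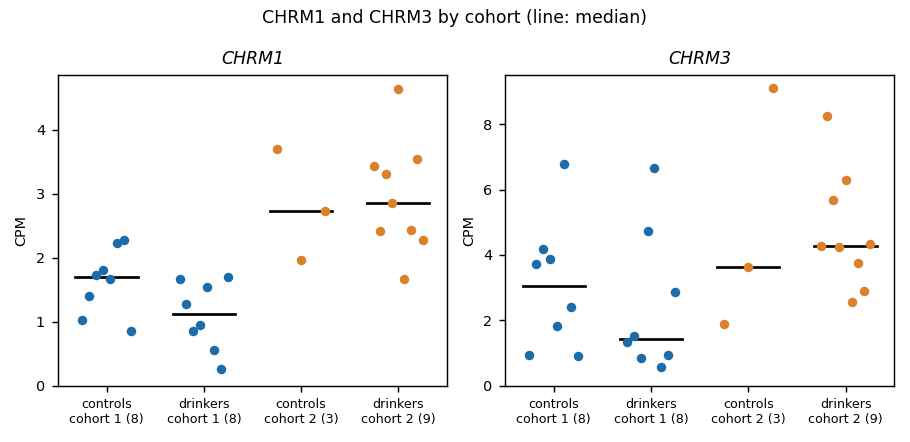
CHRM1 and CHRM3 in each animal (y axis, CPM, linear) by group and cohort (x axis, number of animals in brackets), with medians as lines. For CHRM1 the 3 controls of cohort 2 lie at 1.96, 2.74 and 3.70 CPM and the 8 of cohort 1 at 0.849 to 2.28.

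Levels were next compared across animals with 4 marker scores, each the mean z-score of a list, for 36 correlations in all. CHRM5 was correlated with the dopamine neuron score by Spearman's rho, while Pearson's r missed the threshold after adjustment (Pearson r = 0.541, permutation p = 0.00298, adjusted over the 36 correlations 0.0536; Spearman rho = 0.559, permutation p = 0.00242, adjusted 0.0343). Without the 2 animals farthest from the median score r was 0.586. Among the other transcripts tested, 0.800% had a rho at least as high. In cohort 1 r was 0.628 (n = 16, permutation p = 0.00908) and in cohort 2 0.278 (n = 12, permutation p = 0.384). Neither value passed the adjustment within its cohort. Fitted in edgeR with the score as the tested term, CHRM5 changed by 0.56 on the log2 scale per unit of score (SE 0.18, adjusted p = 0.295 over all transcripts). By that fit 0 of the 9 genes passed, and 0.566% of all 13769 transcripts did, a share that also counts the 11 markers of the score. The edgeR shares given below for the other scores count their own markers too.

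SLC6A3 and TH are both part of that score, so the values of CHRM5 with each of them, taken from 9 pairs chosen for comparison, restate the relation gene by gene. CHRM5 correlated with SLC6A3 (r = 0.579, permutation p = 0.00099, adjusted over 9 pairs 0.00445; rho = 0.610, permutation p = 0.00069, adjusted 0.00621) and with TH, which makes the dopamine precursor (r = 0.590, permutation p = 0.00082, adjusted 0.00445; rho = 0.573, permutation p = 0.00183, adjusted 0.00823). Without the 2 animals farthest from the median of the dopamine gene r was 0.547 and 0.474. Within cohort 1 r was 0.642 and 0.664 (n = 16, adjusted permutation p of 0.0335 for both), and within cohort 2 0.454 and 0.343 (n = 12, adjusted permutation p of 0.418 and 0.588), so the relation did not pass in cohort 2. Given the score r was 0.248 with SLC6A3 and 0.311 with TH (adjusted permutation p of 0.541 for both). The animal with the least CHRM5, a Heavy drinker at 0.453 CPM, was among those with low SLC6A3. The next lowest, a Heavy drinker at 0.893 CPM, was near the middle for SLC6A3.

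**Figure D4:**
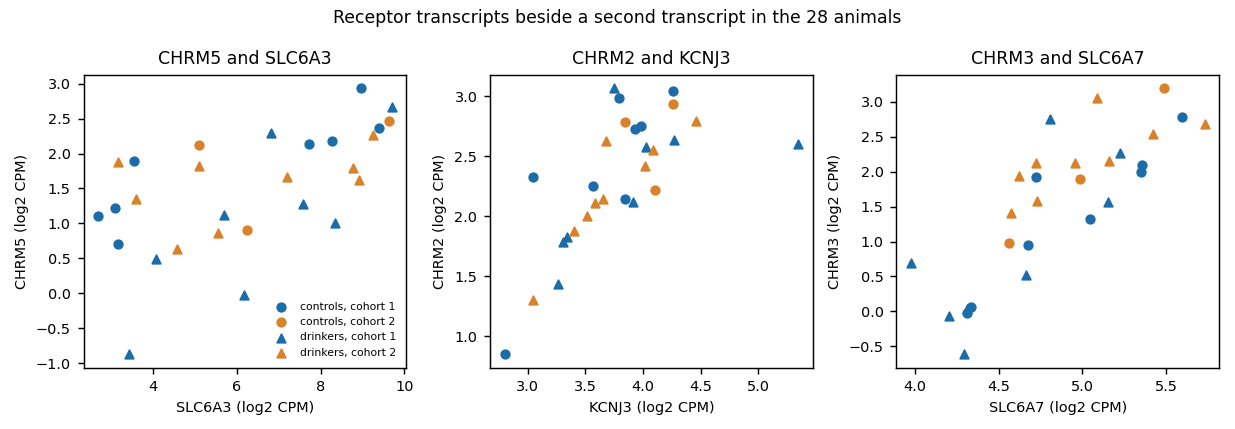
Log2 CPM of CHRM5 against SLC6A3, of CHRM2 against KCNJ3 and of CHRM3 against SLC6A7 in the 28 animals, with circles for controls, triangles for drinkers and colours for cohorts. The Spearman rho values are 0.610, 0.700 and 0.836. KCNJ3 and SLC6A7 were picked as the closest of 7637 transcripts over these same animals, so their values are high by choice. For CHRM5 and SLC6A3 rho was 0.665 in cohort 1 and 0.364 in cohort 2 (permutation p = 0.00617 and 0.247).

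ACHE was correlated with the cranial motor neuron score by both coefficients (r = 0.584, permutation p = 0.00104, adjusted 0.0374; rho = 0.548, permutation p = 0.00286, adjusted 0.0343), with r = 0.527 without the 2 farthest animals. The call was lost with drinking status and cohort taken out (r = 0.504, permutation p = 0.00654, adjusted 0.118; rho = 0.498, permutation p = 0.00771, adjusted 0.0925), and with a prior count of 0.5 r had an adjusted permutation p of 0.0635. The 4 markers in that score summed to at most 2.60 CPM, so it was read from few counts. In cohort 1 r was 0.701 (n = 16, permutation p = 0.00245) and in cohort 2 0.361 (n = 12, permutation p = 0.255), and the edgeR fit on the score gave an adjusted p of 0.361, where 0.0726% of transcripts passed. CHRM2 was negatively correlated with the astrocyte score by rho and not by r (r = -0.423, permutation p = 0.0255, adjusted 0.248; rho = -0.557, permutation p = 0.00244, adjusted 0.0343). That call too was lost with drinking status and cohort taken out (r = -0.439, permutation p = 0.0206, adjusted 0.150; rho = -0.506, permutation p = 0.00692, adjusted 0.0925). Its r was -0.510 without the 2 farthest animals, -0.526 in cohort 1 and -0.390 in cohort 2. In edgeR the adjusted p was 0.468, where 0.254% of transcripts passed. Against the oligodendrocyte score no correlation passed, and in edgeR 0 of 9 genes did where 0.726% of transcripts did. None of the other correlations with the 4 scores passed by either coefficient.

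The genes that together make a cholinergic neuron were compared in pairs, although CHAT and SLC18A3 had 3 counts or fewer in 14 and 23 of the 28 animals. CHAT gave r = 0.112 with SLC18A3 (rho = 0.0635, permutation p = 0.572 and 0.744), 0.00564 with SLC5A7 (rho = 0.00748, permutation p = 0.977 and 0.970) and -0.0113 with ACHE (rho = -0.0208, permutation p = 0.955 and 0.917). SLC18A3 and SLC5A7 gave r = 0.248 (rho = 0.206, permutation p = 0.204 and 0.289). Without the 2 farthest animals these r were 0.0786, 0.0625, -0.0111 and 0.146. At 0 to 26 counts of CHAT and 0 to 9 of SLC18A3 counting error is large, and a relation may go undetected, which was not tested. Zeros were spread unevenly over the cohorts. SLC18A3 was at 0 in 11 of 16 cohort 1 animals, with up to 9 counts in the rest. In cohort 2 it was at 0 in 3 of 12, with at most 3 counts. CHAT was at 0 in 5 animals of cohort 1 and 3 of cohort 2. CHAT and SLC18A3 gave r = 0.286 in cohort 1 and -0.624 in cohort 2 (adjusted permutation p = 0.631 and 0.285).

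Among the receptors, CHRM1 and CHRM3 had a rho of 0.592 over the 28 animals, which share the cohort difference of both genes. It was 0.671 within the 16 animals of cohort 1 and 0.042 within the 12 of cohort 2. CHRM1 and CHRM4, both on chromosome 14, gave r = 0.246 (rho = 0.188, permutation p = 0.206 and 0.337). CHRM2 gave r = 0.0670 with SLC5A7 and -0.125 with CHAT (permutation p = 0.736 and 0.528; rho = 0.0323 and -0.112). M2 is known as an autoreceptor of cholinergic terminals.

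**Figure D5:**
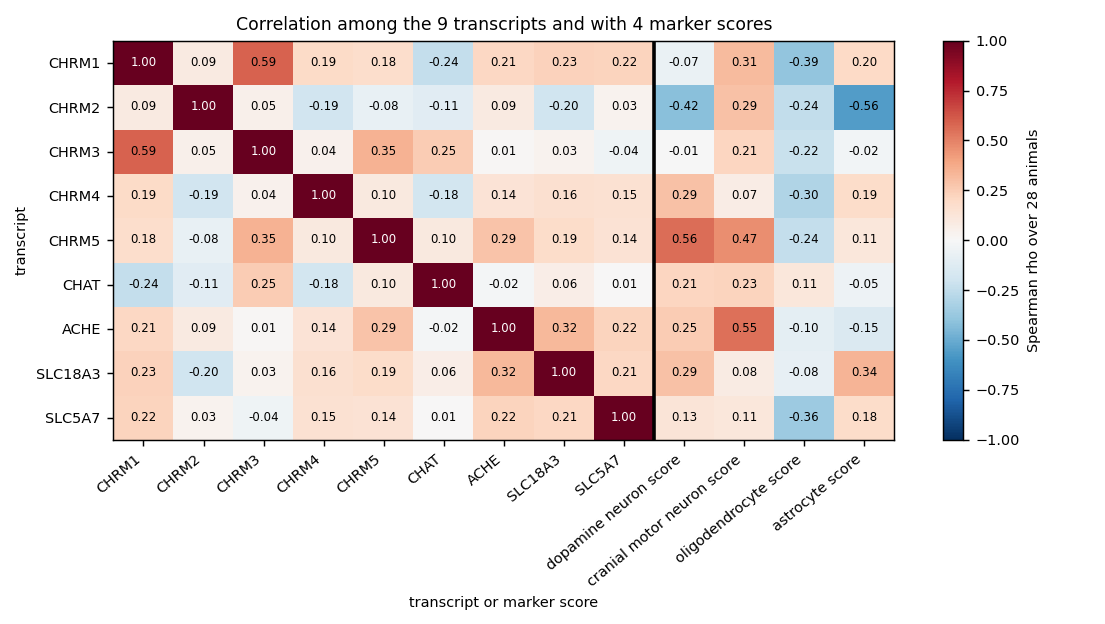
Spearman rho over the 28 animals among the 9 transcripts (left of the line) and of each with 4 marker scores (right of the line), on a scale from -1 (blue) to 1 (red). Apart from the diagonal, the highest values are CHRM1 with CHRM3 (0.592) and CHRM5 with the dopamine neuron score (0.559), and the lowest is CHRM2 with the astrocyte score (-0.557).

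For each gene the 3 transcripts of most similar pattern were sought among 7637 transcripts with at least 10 counts in every animal, by Spearman's rho of log2 CPM over the 28 animals and as a description only. Values within a cohort come from the animals used to pick the partners, so they are no separate check. CHRM3 had the closest partners, SLC6A7 (the brain proline transporter, rho = 0.836), OTOF (otoferlin, 0.816) and EPB41L4B (0.813), and for each of them rho was 0.755 or higher within both cohorts. For CHRM5 they were FGF13 (0.785), KLHL1 (0.781) and LASP1 (0.755), with KLHL1 at 0.779 in cohort 1 and 0.867 in cohort 2. For CHRM2 they were KCNJ3 (0.700), HS6ST3 (0.686) and PDE4A (0.680). KCNJ3 encodes a subunit of the inwardly rectifying potassium channels that M2 receptors open, and its rho with CHRM2 was 0.615 in cohort 1 and 0.867 in cohort 2. For CHRM1 they were PPP1R26 (0.779), ASIC1 (0.743) and PTGFRN (0.721). Within cohorts 1 and 2 PPP1R26 was at 0.406 and 0.664, ASIC1 at 0.874 and 0.294, and PTGFRN at 0.485 and -0.280. For CHRM4 PGBD5 (0.727) and GNG2 (0.702) were the closest.

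The other genes had weaker partners: COMTD1, AP1B1 and CSDC2 for ACHE (0.672, 0.667 and 0.667), ATPAF1, ANXA11 and PPP5C for SLC5A7 (0.599, 0.596 and 0.585), PDE3A, PCLO and CDH3 for CHAT (0.658, 0.654 and 0.623) and PERP, TTC5 and KCNA6 for SLC18A3 (0.672, 0.667 and 0.664). For CHAT and SLC18A3 such values rest on few counts.

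A list of 35 further genes of the pathway, covering choline uptake and phospholipid metabolism, the acetyl-CoA supply, the G proteins and phospholipases of the receptors and their potassium channels, was read in the same way. Of these 32 were tested and 0 passed in any of the 8 comparisons. In drinkers against controls 15 estimates were positive and 17 negative, with a median log2 fold change of -0.03. The lowest p were those of GNAI3, an inhibitory G protein alpha subunit (log2 fold change 0.18, SE 0.07, p = 0.0120, adjusted p = 0.840 in edgeR), and PEMT, which makes phosphatidylcholine by methylation (-0.25, SE 0.10, p = 0.0168, adjusted p = 0.939 in edgeR). Between cohorts 6 of 32 had an unadjusted p below 0.05, 4 of them higher in cohort 2, against 9.80% of all transcripts.

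BCHE, butyrylcholinesterase, which also hydrolyses acetylcholine, had 13.9 to 38.5 CPM in controls (median 20.4) and 15.0 to 48.1 in drinkers (median 26.97), a log2 fold change of 0.34 (SE 0.19, 95% interval -0.04 to 0.73, adjusted p = 1 in edgeR). In cohort 1 controls had 13.9 to 22.7 CPM and drinkers 15.0 to 44.0, a log2 fold change of 0.52 (SE 0.20, p = 0.0195, adjusted p = 0.308 in edgeR). In cohort 2 controls had 26.2 to 38.5 and drinkers 20.4 to 48.1, a log2 fold change of -0.11 (SE 0.30), and the difference between cohorts did not pass (adjusted p = 0.632 in edgeR). The estimates of the 2 cholinesterases thus had opposite signs over all animals, with neither passing.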

How the data were processed

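The authors trimmed reads with Trim Galore 0.6.7, quantified them with Salmon 1.9.0 against the macaque build Mmul_10 and deposited each estimated count without normalization, for 1 transcript per gene. Their notes also list DESeq2 1.36.0. Counts were rounded to whole numbers, and the 1 entry without a symbol (1.16e-05 percent of counts) was left out. Groups came from the labels and cohorts from the study's source data (3 controls by elimination). Comparisons used edgeR 4.0.16 (TMM, quasi-likelihood, Benjamini-Hochberg over all 13769 transcripts) after a filter of 5 counts in 3 animals. Standard errors are the log2 fold change divided by the root of F. Alternatives used DESeq2 1.42.0 and limma 3.58.1. Log2 CPM had a prior count of 2, and correlations used 100000 permutations. Positions and sequences came from RefSeq. Floors and intervals cover counting error or animal spread only, and 1 library per animal leaves technical error unmeasured. Named genes were the 9 members, the pathway genes passing a test or with the 2 lowest p, BCHE and the 3 most similar transcripts per member, of which 1 is not reported here. Members and lists were chosen with earlier results of these data known. The edgeR fit was tested on simulated data.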

Additional observations from a re-analysis of the deposited data

Results flagged for a closer look

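The level of each of the 9 genes was examined for an animal standing apart in 5 sets of animals (Heavy, Very Heavy, cohort 1 controls, cohort 1 drinkers and cohort 2 drinkers), 45 sets of values in all, by the gap of the highest or lowest animal to its neighbour as a share of the range (Dixon's test at 95%). Chance flags about 1 in 20 such sets, and 3 were flagged. For CHRM4 a Very Heavy animal of cohort 2 had 4.40 CPM, against 2.58 in the next Very Heavy animal, a gap of 0.505 of the range. The same animal was flagged among cohort 2 drinkers, where the next had 2.45 CPM and the gap was 0.541. For SLC18A3 a Very Heavy animal of cohort 1 had 0.260 CPM from 5 counts, against 0.126 CPM from 3 counts in the next, a gap of 0.514. No gene differed between cohorts in its response to drinking at an adjusted p of 0.05 in edgeR, where 2 transcripts of 13769 did.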

How the results depend on the processing

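No gene tested was called in 7 of the 8 comparisons under any alternative run. Between cohorts 1 gene, CHRM1, was called by DESeq2 and by limma-voom and 0 under the others, with a log2 fold change of 1.151 to 1.301 where it was tested (with at least 10 counts in every animal it was not). Signs turned for some estimates, none of them called. In drinkers against controls these were CHRM1 (-0.34 with cohort as covariate, -0.10 by limma-voom), CHRM3 (-0.24 and -0.07) and CHAT (-0.16 with the dopamine neuron score as covariate, -0.56 by limma-voom). Between cohorts they were CHRM2 (-0.011 by DESeq2, -0.012 with its size factors, -0.005 with at least 10 counts in every animal, -0.056 to 0.039 without single cohort 2 controls) and CHRM4 (0.044 with the score, 0.26 by limma-voom). In the interaction, CHRM5 went from 0.27 to -0.08 and CHRM3 from 0.29 to -0.09 without Control replicate 9. Within cohort 2, CHRM3 went from -0.05 to 0.77 without Control replicate 11. Signs also turned for single genes in the intake comparisons and within cohort 1, and for SLC18A3, for which no fold is given since most animals had 3 counts or fewer. Of 36 score correlations, 1 passed by both coefficients, 2 on variance stabilized counts, and 0 with a prior count of 0.5, in either cohort alone, after removing drinking status and cohort, or by the edgeR fit on scores, which was added after seeing the data. Of 9 pairs 2 passed, and 0 in cohort 2 or given the dopamine neuron score. CHAT changed sign with SLC18A3 in cohort 2 (-0.624) and with SLC5A7 in cohort 1 (-0.0445), given the score (-0.0133) and on variance stabilized counts (-0.0496). The cause was not tested. Over all transcripts DESeq2 called 11, 48, 22, 56, 121, 234, 23 and 129 in the 8 comparisons in the order of the report's tests (drinkers, Heavy, Very Heavy, Very Heavy against Heavy, cohorts, cohort 1, cohort 2, interaction), where edgeR called 0, 0, 0, 0, 6, 5, 0 and 2. Limma-voom called 23, 3, 3 and 2 in the last 4. Without 1 cohort 2 control edgeR called 0 to 6 between cohorts and 0 to 4 for the interaction. No order of levels between genes was tested, in controls or in drinkers, since lengths of the listed transcripts were not used here. Low counts of the 1 listed transcript limit CHAT and SLC18A3 most, and the 3 controls of cohort 2 limit every comparison that rests on them.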
